A study of Mus musculus with 5 samples.

Results

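The sites described here are those of Olig2 and Hoxc9 recovered with the same antibody, anti-V5, from cells carrying either factor with a V5 epitope tag. ChIP-seq, in which protein-bound DNA is pulled down and sequenced, had given the authors a list of binding events for each factor. An event is a single base on mouse build mm9 with its IP reads (reads of the pull-down) and control reads. The V5 Olig2 list came from Ainv15 cells with inducible V5-tagged Olig2 at day 4, and the V5 Hoxc9 list from Ainv15 cells with inducible V5-tagged Hoxc9 at day 5. Both cultures had been given doxycycline (3 µg/ml) to switch the factor on, after retinoic acid (1 µM) and a hedgehog agonist (0.5 µM) from day 2, and both are labelled progenitor motor neurons. The members were all events of these 2 lists on the 19 autosomes and X, 11067 for Olig2 and 11065 for Hoxc9, or 22132 of the 87107 events in the series. The remaining events belonged to native Olig2 in day 4 cells without doxycycline and to Flag-tagged Hoxc9 in day 5 cells with it, and served here only as further readouts. All cultures were derived from Ainv15, a mouse embryonic stem cell line, with the same retinoic acid and hedgehog agonist; the native Olig2 cells were the V5 Olig2 line left uninduced, and Flag Hoxc9 had a line of its own. The mock anti-V5 pull-down from uninduced V5 Olig2 cells was not analysed here. The V5 Hoxc9 list pooled 2 libraries and the V5 Olig2 list held 1, and neither list has a replicate to check a difference against. Factor, day and cell line changed together and cannot be told apart.

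Olig2, of the basic helix-loop-helix class, marks the progenitors of spinal motor neurons and oligodendrocytes and acts largely as a repressor. Proteins of this class bind the short E-box element as dimers. Hoxc9 is a homeodomain protein that gives spinal motor neurons their thoracic identity. Homeodomain proteins of this kind bind AT-rich elements, often beside Pbx and Meis partners, so the 2 factors recognise different DNA.

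The 2 factors were found mostly at different places. Chaining events of both lists that lay within 200 bp of each other gave 19924 loci. Of these, 9260 (46.5%) held Olig2 alone, 9527 (47.8%) held Hoxc9 alone and 1137 (5.71%) held both. Seen from each list, 11.6% of V5 Olig2 events (1283 of 11067; Wilson 95% interval 11 to 12.2) had a V5 Hoxc9 event within 200 bp. In the other direction it was 11.1% of V5 Hoxc9 events (1225 of 11065; 10.5 to 11.7). The intervals cover counting error only, since neighbouring events are not independent. Loci with both factors were also more crowded: 18.9% held more than 1 event of the same factor, beside 5.05% of Olig2-only and 3.14% of Hoxc9-only loci. A locus with both factors can hold several events by chaining. It also counts when either factor has more than 1 event, whereas the other loci can count through their own factor only. The comparison allows for neither.

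Where the factors met, they met closely. A further 274 V5 Olig2 events had their nearest V5 Hoxc9 event between 201 and 500 bp away, and 183 between 501 and 1000 bp. Per base of distance there were 14.6 such events at 0 to 10 bp, 14.4 at 11 to 25 bp and 11.9 at 26 to 50 bp. The density then dropped to 6.94 at 51 to 100 bp, 2.62 beyond that up to 200 bp and 0.913 at 201 to 500 bp. Beyond that it flattened, to 0.366 at 501 to 1000 bp and 0.165 at 2001 to 5000 bp. The 200 bp limit therefore sits on the falling part of the curve. For 5322 V5 Olig2 events (48.1%) and 5528 V5 Hoxc9 events the nearest event of the other factor lay more than 50 kb away.

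**Figure D1:**
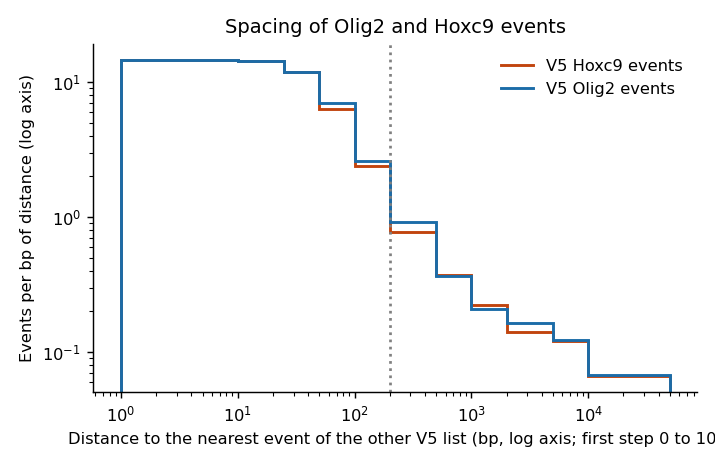
Number of events per bp of distance (vertical, log axis) against the distance in bp to the nearest event of the other V5 list (horizontal, log axis), for V5 Olig2 and V5 Hoxc9 events, with the 200 bp limit dotted. Both curves start at 14.6 events per bp and fall below 1 past 200 bp.

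The pairs nearest the limit on either side were these. Just inside it lay the events at 68376331 (Olig2, 43.6 IP reads) and 68376132 (Hoxc9, 57.0) on chromosome 3, 199 bp apart. The next inside were 47406314 (Olig2, 38) and 47406511 (Hoxc9, 63.0) on chromosome 13, 197 bp apart. Just outside lay 27419589 (Olig2, 65.2) and 27419388 (Hoxc9, 54.3) on chromosome 12, 201 bp apart. On the same chromosome, 47799506 (Olig2, 77.0) and 47799303 (Hoxc9, 137.9) were 203 bp apart. All 4 pairs had a native Olig2 and a Flag Hoxc9 event close by, within 55 bp of the V5 event of the same factor. Of all 1155 mutually nearest pairs within 200 bp, 82.3% had both of these events within 200 bp.

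Strong sites were shared more often than weak ones, in both lists. Among the 10% of V5 Hoxc9 events with most IP reads (129 or more), 25.0% had a V5 Olig2 event (22.6 to 27.7). The percentage was lower in each following 10% of that list and reached 4.07% (3.05 to 5.40) in the last. For V5 Olig2 it went from 20.3% (18.0 to 22.7) in the 10% with most IP reads to 7.86% (6.42 to 9.59) in the sixth such group. It then stayed between 8.40% and 9.58% in the last 4 groups. The last groups cover different IP reads, 15.0 to 25.7 for V5 Olig2 and 25.0 to 30.0 for V5 Hoxc9, so their percentages are not compared between the lists. V5 Olig2 events with Hoxc9 had a median of 59.0 IP reads, and those without it 46.25. For V5 Hoxc9 events the medians with and without Olig2 were 78.0 and 50.

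**Figure D2:**
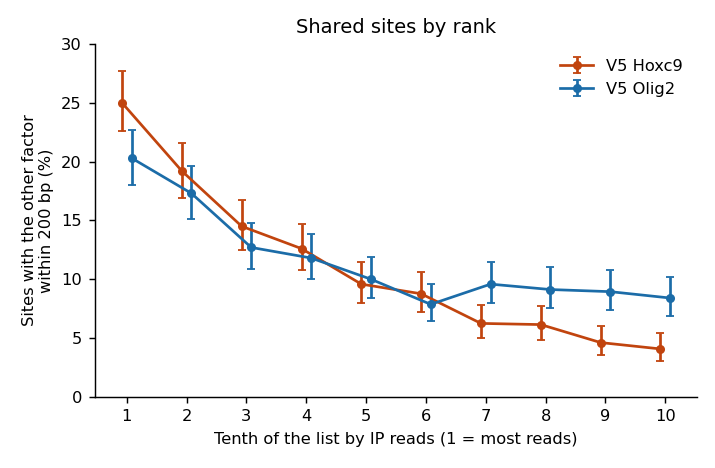
Percent of events with the other factor within 200 bp (vertical) for 10 equal groups of each list ranked by IP reads (horizontal, group 1 has the most reads), with Wilson 95% intervals as bars. V5 Hoxc9 falls from 25.0% to 4.07% and V5 Olig2 from 20.3% to 8.40%.

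The very strongest sites of the 2 lists were not the same ones. No V5 Olig2 event of the top 100 had a top 100 V5 Hoxc9 event within 200 bp, though 25 of the 100 had a V5 Hoxc9 event of some rank. The same held for the top 100 V5 Hoxc9 events, of which 26 had a V5 Olig2 event of some rank. The top 100 is a very small part of lists of 11067 and 11065 events, so this absence says little. Over the top 1000 of each list, 206 V5 Olig2 events (20.6%) had some V5 Hoxc9 event, and 57 (5.7%; 4.43 to 7.31) had a top 1000 one. Of the top 1000 V5 Hoxc9 events, 248 (24.8%) had some V5 Olig2 event and 53 (5.3%; 4.07 to 6.87) a top 1000 one. With both lists limited to events with control reads at or below the list median, which also removes partners, some event of the other factor was near 5.8% of the top 1000 V5 Olig2 events and 5.19% of all of them. For V5 Hoxc9 these were 7.9% and 5.67%. The difference between strong and other sites was thus much smaller in these filtered lists, whose top 1000 were the strongest events kept. With all partners kept, a difference remained in the V5 Olig2 list. Of V5 Olig2 events with control reads at 0, 24.0% (interval 15.8 to 34.8), 14.1% and 10.5% (8.74 to 12.7) were then shared. These are 3 equal groups of the list by IP reads, from most to fewest. For V5 Hoxc9 events with control reads at 0 the values were 7.42%, 7.07% and 4.28%. Their intervals were 4.69 to 11.6, 5.15 to 9.64 and 3.4 to 5.38. The first 2 of these groups were thus alike, and the interval of the first overlapped that of the last. In the full lists, most events beside a top 1000 site of the other factor were outside the top 1000 of their own list. The top 1000 is less than 10% of either list, however. The 57 of 206 V5 Olig2 and 53 of 248 V5 Hoxc9 events with a top 1000 partner are larger shares than that.

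Values at individual loci are given for mutually nearest events within 200 bp, of which there were 1155 pairs. The pair whose weaker member ranked best lay on chromosome 10, with Olig2 at 38273715 (546.0 IP reads, rank 24) and Hoxc9 59 bp away at 38273656 (255.9, rank 169). The next, on chromosome 11, had Olig2 at 113301112 (356.0 IP reads) and Hoxc9 128 bp away at 113301240 (238.0). The third, on chromosome 17, had Olig2 at 15480170 (269.7 IP reads) and Hoxc9 37 bp away at 15480133 (240.0). None of the 1155 pairs had both members ranked above 169, and 42 had both in the top 1000.

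The 4th pair joined one of the strongest Olig2 sites to a Hoxc9 site of lower rank. It lay on chromosome 19, where Olig2 at 45533452 had 751.0 IP reads (rank 12) and Hoxc9 at 45533460, 8 bp away, 214.0 (rank 290). On chromosome 7, Olig2 at 56960118 had 239.0 IP reads and Hoxc9 at 56960195 had 270.0. Chromosome 8 gave 3 of the 10 pairs, with Olig2 events at 8654075, 37218705 and 127801469. The last of these had 199.4 Olig2 and 507.0 Hoxc9 IP reads, the latter beside 53.0 control reads. The remaining pairs had their Olig2 events at 131300821 on chromosome 3 and 150561982 on chromosome 2. All 10 pairs also had a native Olig2 event within 36 bp and a Flag Hoxc9 event within 36 bp of the V5 event of that factor. Over all 1155 pairs, 82.3% had both within 200 bp.

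Several of the strongest Hoxc9 sites had an Olig2 event of middling rank close by. Of the 20 V5 Hoxc9 events with most IP reads, 8 had a V5 Olig2 event within 200 bp, beside 11.1% of the whole list. The event at 103135814 on chromosome 15 had 1597.0 V5 Hoxc9 IP reads (rank 2), and the V5 Olig2 event 22 bp away had 57.0 (rank 4224). At 117003575 on chromosome 4, 946.0 V5 Hoxc9 IP reads lay 45 bp from a V5 Olig2 event with 35.4 (rank 7993). At 39615901 on chromosome 13 the values were 732.0 and 79.9 IP reads, 68 bp apart. At 87544650 on chromosome 12 they were 624.0 and 128.0, 8 bp apart. Each of these Olig2 events had a native Olig2 event within 89 bp, in a culture without doxycycline and with another antibody. Of all V5 Olig2 events with V5 Hoxc9, 90.1% had a native Olig2 event within 200 bp. The 7 mutually nearest V5 Olig2 events at the top 20 Hoxc9 sites ranked from 1096 to 7993 of 11067. The top 20 were looked at after the values were seen.

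At the 4 mutually nearest pairs with a top 20 V5 Olig2 event, the Hoxc9 events had ranks from 290 to 1614 of 11065. These ranks were mostly higher in their list than those of the Olig2 events above, but over few pairs. Of the 20 V5 Olig2 events with most IP reads, 5 had a V5 Hoxc9 event. This was 25.0% (Wilson interval 11.2 to 46.9), the same as in the top 100 (25.0%), beside 11.6% of the list. At 55447585 on chromosome 11, V5 Olig2 had 902.0 IP reads (rank 6) and V5 Hoxc9, 80 bp away, 126.3 (rank 1161). At 29642628 on chromosome 16 the values were 817.0 (rank 8) and 168.8 (rank 575), 105 bp apart. Both sites also had native Olig2 (760.0 and 1004.0 IP reads) and Flag Hoxc9 events (128.5 and 666.8).

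Sites of 1 factor alone filled much of both tops. The 10 V5 Olig2 events with most IP reads and no V5 Hoxc9 event within 1 kb ranked from 1 to 14 in their list. They ran from 128758718 on chromosome 1 (1232.5 IP reads, 8.0 control reads) through 71222045 on chromosome 17 (1165.0), 60626368 on chromosome 2 (1101.0) and 4074474 on chromosome 2 (1061.0) to 64122348 on chromosome 13 (690.0). All 10 had a native Olig2 event, beside 78.1% of the whole list within 200 bp. In the third of the list with most IP reads it was 94.7% to 98.2%, depending on control reads. The native events at the 10 sites lay within 14 bp, and the native event at the chromosome 17 site ranked 1. In the Flag Hoxc9 list, 4 of the 10 had an event within 200 bp, beside 27.3% of all V5 Olig2 events and 19% of those without V5 Hoxc9. At 128758718 the Flag event had 83.4 IP reads, and at the pair of events at 64122348 and 64122433 it had 133.0.

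The 10 V5 Hoxc9 events with most IP reads and no V5 Olig2 event within 1 kb ranked from 1 to 18. In the third of the V5 Hoxc9 list with most IP reads, 96.8% to 99.6% of events had a Flag Hoxc9 event, depending on control reads. It was 81.8% over the whole list and 80.6% of V5 Hoxc9 events without V5 Olig2. Of the 10, 8 had a Flag Hoxc9 event. All 8 lay within 15 bp, among them 102845099 on chromosome 15 (742.0 V5 and 1824.0 Flag IP reads) and 73149979 on chromosome 4 (696.8 and 2352.1). At 117357338 on chromosome 6, 681.0 IP reads stood beside control reads listed at 0. The other two were the neighbouring events at 3000454 and 3001412 on chromosome 9, with 1626.8 and 1472.0 IP reads, 254.0 and 91.4 control reads and no V5 Olig2, native Olig2 or Flag Hoxc9 event nearer than 354508 bp. Native Olig2 events lay within 200 bp of 2 of the 10, beside 16.5% of the whole list: 24 bp from 80073078 on chromosome 14 (58.0 native IP reads) and 10 bp from 102865795 on chromosome 15 (15.4).

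Some pairs joined the top of 1 list to the end of the other. At 145490903 on chromosome 3, V5 Hoxc9 had 312.0 IP reads (rank 89) and V5 Olig2, 5 bp away, 22.8 (rank 10395). At 80305538 on chromosome 14, V5 Olig2 had 163.0 IP reads (rank 663) and V5 Hoxc9, 132 bp away, 25.6 (rank 10979). The other lists held events at both loci: 608.0 Flag Hoxc9 IP reads (rank 454) and 31.0 native Olig2 (rank 8056) at the first, and 144.8 Flag Hoxc9 (rank 7646) and 156.1 native Olig2 (rank 552) at the second. The Flag Hoxc9 event at the second locus thus ranked well above the end of its list of 49278, unlike the V5 Hoxc9 event. The strongest Olig2 event of this kind, at 100245669 on chromosome 13 (322.9 IP reads, rank 138), lay 173 bp from a V5 Hoxc9 event with 31.0, and the nearest Flag Hoxc9 event was 19923 bp from the latter.

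Across the 1155 pairs, IP reads of the factors were weakly related (Spearman's rho 0.335; Pearson's r 0.293 on log2 reads). The median difference in rank was 2337 places, and 267 pairs (23.1%) ranked within 1000 places of each other. For comparison, 951 of the pairs had a native Olig2 event near the V5 Olig2 event and a Flag Hoxc9 event near the V5 Hoxc9 event. At these, rho was 0.748 between V5 and native Olig2 and 0.693 between V5 and Flag Hoxc9, but 0.242 between V5 Olig2 and V5 Hoxc9. Between factors with other antibodies it was 0.144 (native Olig2 and Flag Hoxc9), 0.128 (V5 Olig2 and Flag Hoxc9) and 0.205 (V5 Hoxc9 and native Olig2). The log2 ratio of V5 Olig2 to V5 Hoxc9 IP reads followed the log2 ratio of native Olig2 to Flag Hoxc9 (rho 0.691). The ratios are built from the same reads, so this value largely follows from the correlations above. All of these correlations are descriptions across sites, which share libraries and are not replicates. Over the 303 of all 1155 pairs with both control reads at or below the median of their list, rho between V5 Olig2 and V5 Hoxc9 was 0.118, beside 0.335 over all of them.

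**Figure D3:**
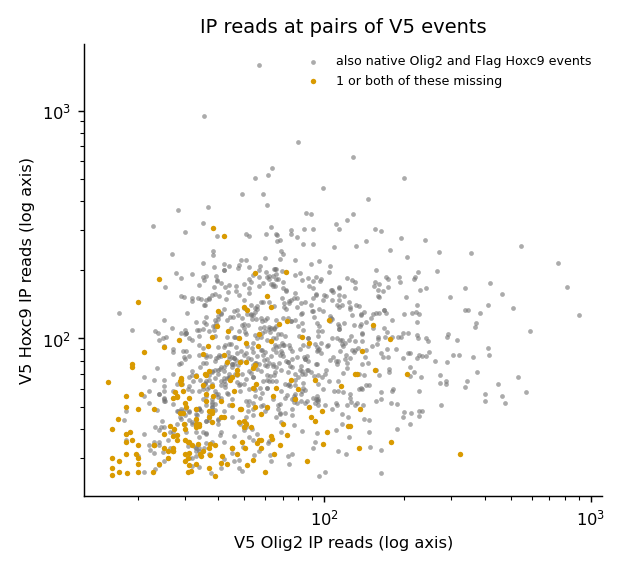
V5 Hoxc9 IP reads (vertical, log axis) against V5 Olig2 IP reads (horizontal, log axis) at the 1155 pairs of V5 events, each point 1 pair, coloured by whether native Olig2 and Flag Hoxc9 events were near. The cloud is wide (rho 0.335), and no point is far up on both axes.

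Control reads moved with sharing in the V5 Hoxc9 list and not in the same way in the V5 Olig2 list. Control values had first to be put on a common footing. In the V5 Olig2 list, 59.7% of the control values above 0 fell within 0.06 of a multiple of 1.03, where an even spread would give 11.7%. In the V5 Hoxc9 list, 71.6% fell that close to a multiple of 2.95, where an even spread would give 4.07%. A step was taken as 1 control read after scaling, so the medians of 3.1 and 2.9 control reads stand for 3 steps and 1 step. A fold in the V5 Hoxc9 list can therefore rest on a single control read. At the 1155 pairs the control reads of the lists were related (rho 0.818), their median ratio was 2.84 and the ratio of the steps 2.86. In steps, the control reads were equal to within 0.5 at 603 of the 1155 pairs (52.2%). Which control library was used is not given in the sources used here, and if both lists used the same one, these values compare it with itself.

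Shared V5 Hoxc9 events had a median of 8.8 control reads (3 steps), and unshared ones 2.9 (1 step). Shared and unshared V5 Olig2 events both had 3.1 (3 steps). IP and control reads rose together over the lists (rho 0.580 for V5 Olig2 and 0.671 for V5 Hoxc9), so events were also compared within 3 equal groups of each list by IP reads. In the V5 Hoxc9 group with most IP reads, 7.42% of events with control reads at 0 had a V5 Olig2 event (17 of 229; 4.69 to 11.6). Past 3.5 steps it was 28.3% (455 of 1609; 26.1 to 30.5), at median IP reads of 97.0 and 108.0. The corresponding group of the V5 Olig2 list went the other way, from 24.0% at 0 (18 of 75; 15.8 to 34.8) to 15.2% past 3.5 steps (361 of 2376; 13.8 to 16.7). Flag Hoxc9 events were found at 37.3% and 36.4% of the V5 Olig2 events in the same 2 classes. Native Olig2 events were at 12.7% of the V5 Hoxc9 sites without control reads and at 40.1% of those past 3.5 steps, so the rise with control reads was also seen with the native antibody. Whether regions rich in control reads account for sharing at V5 Hoxc9 sites was not tested.

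**Figure D4:**
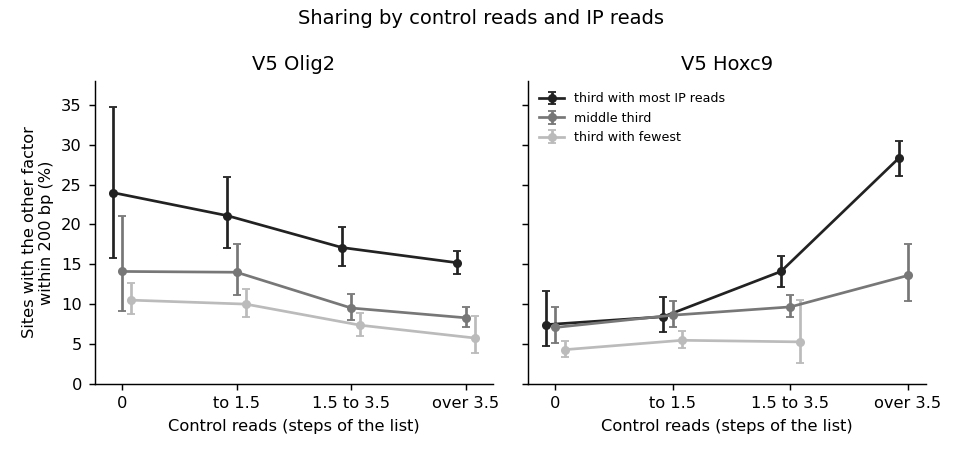
Percent of events with the other factor within 200 bp (vertical) by control reads in steps of the list (horizontal), for 3 equal groups of the V5 Olig2 list (left) and the V5 Hoxc9 list (right) by IP reads, with Wilson 95% intervals as bars. In the group with most IP reads the line falls from 24.0% to 15.2% for V5 Olig2 and rises from 7.42% to 28.3% for V5 Hoxc9; no event of the V5 Hoxc9 group with fewest IP reads is past 3.5 steps.

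Most pairs were also found without the V5 antibody. Of the 1155 pairs, 951 (82.3%; 80.0 to 84.4) had both a native Olig2 and a Flag Hoxc9 event within 200 bp of the matching V5 event. Native Olig2 alone was near 80 pairs (6.93%) and Flag Hoxc9 alone near 95 (8.23%). Neither was near 29 pairs (2.51%; 1.75 to 3.58). With a fold of 10 or more required of every event, which left 568 pairs, both were near 76.6% and neither near 3.87%. Over whole lists, 78.1% of V5 Olig2 events had a native Olig2 event and 81.8% of V5 Hoxc9 events a Flag Hoxc9 event. Pairs lacking both other events were weak, with medians of 31.1 V5 Olig2 and 35.0 V5 Hoxc9 IP reads, beside 64.0 and 85.0 at the 951. The median control reads were 1.0 and 2.9, and 3.1 and 8.8, in the same order.

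In 19 of the 1155 pairs no native Olig2 or Flag Hoxc9 event lay within 1 kb. The strongest was on chromosome 1, with Olig2 at 36060669 (61.0 IP and 3.1 control reads) and Hoxc9 at 36060618 (154.0 IP and 8.8 control reads). It was followed by Olig2 at 102504210 on chromosome 2 (55.5 IP reads, with 63.0 at the Hoxc9 event 42 bp away). The next lay at 98140715 on chromosome 3 (51 and 79.0), 42299507 on chromosome 1 (38.1 and 56.1) and 41768552 on chromosome 19 (38 and 47.0). Apart from the Hoxc9 event on chromosome 1 (rank 711), none of these 5 pairs had an event in the top 1000 of its list.

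Some sites with 1 V5 factor alone had the other factor in the native or Flag list. Over the whole list, 27.3% of V5 Olig2 events had a Flag Hoxc9 event and 16.5% of V5 Hoxc9 events a native Olig2 event. Among the 9784 V5 Olig2 events without V5 Hoxc9, 1857 (19%; 18.2 to 19.8) nevertheless had a Flag Hoxc9 event. These Flag events had a median of 64.0 IP reads, beside 151.55 where V5 Hoxc9 was present. Among the 9840 V5 Hoxc9 events without V5 Olig2, 739 (7.51%; 7.01 to 8.05) had a native Olig2 event, with a median of 26 IP reads beside 59.0 where V5 Olig2 was present. In these longer lists, events of the other factor were thus weaker where its V5 event was missing. The shares depend on the lengths of the lists (49278 Flag Hoxc9 and 15697 native Olig2 events).

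The distance between factors at a shared locus was larger than the distance between antibodies to 1 factor. At the 951 pairs in all 4 lists, the V5 Olig2 and V5 Hoxc9 events lay a median of 41 bp apart, and the native Olig2 and Flag Hoxc9 events 43 bp apart. V5 and native Olig2 events lay 16 bp apart and V5 and Flag Hoxc9 events 19 bp. Within 10 bp of each other were 14.6% of the V5 Olig2 and V5 Hoxc9 events, but 37.2% of the V5 and native Olig2 events and 30.5% of the V5 and Flag Hoxc9 events. In 562 of the 951 (59.1%) the V5 factors were farther apart than both antibody pairs. Chromatin was sheared to about 500 bp, so distances of this size rest on how the events were fitted to the reads.

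The order of the factors along the chromosome was recovered with the other antibodies. Position differences of Olig2 minus Hoxc9 in the V5 lists followed those in the native and Flag lists (Pearson's r 0.780, Spearman's rho 0.762, n = 951). Where the V5 events were more than 50 bp apart, native Olig2 and Flag Hoxc9 had the same order at 355 of 384 loci (92.4%; 89.4 to 94.7). Beyond 100 bp it was 140 of 143, and from 1 to 10 bp, where the order is hardly resolved, 72 of 130 (55.4%; 46.8 to 63.7). The native and Flag events were taken as the nearest to each V5 event, and part of this relation follows from that choice. With exactly 1 event of each list within 500 bp, a condition added after seeing the data, r was 0.743 over 354 loci and the order was kept at 111 of 125 (88.8%). At the first-ranked pair, on chromosome 10, Olig2 lay 59 bp above Hoxc9 in the V5 lists and 89 bp above it in the native and Flag lists.

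**Figure D5:**
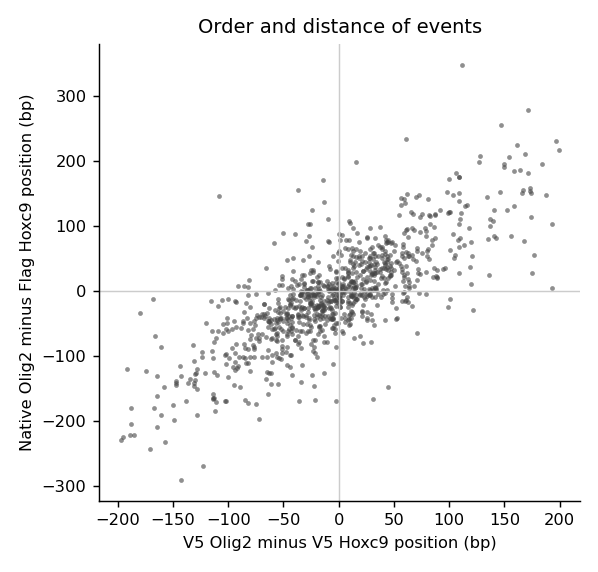
Native Olig2 minus Flag Hoxc9 position in bp (vertical) against V5 Olig2 minus V5 Hoxc9 position in bp (horizontal), each point 1 of the 951 pairs in all 4 lists. Points run along the diagonal (r 0.780), and beyond 50 bp on the horizontal axis 355 of 384 lie on the same side of 0 on both axes.

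By coordinate, the Olig2 event was the higher in 526 of the 1155 pairs, the lower in 620 and at the same base in 9. The strand of the bound elements was not known, so these counts cannot show whether Olig2 kept to 1 side of Hoxc9. The loci with most V5 events were short stretches with several sites of each factor. That on chromosome 12 from 80980601 to 80981094 held 4 Olig2 and 2 Hoxc9 events, with at most 276.7 and 154.1 IP reads. That on chromosome 1 from 195987095 to 195987576 held 3 of each, with at most 292.3 and 147.8. The other 3 held 5 events each, at 54937845 on chromosome 9, 71426203 on chromosome 4 and 111998848 on chromosome 11, where they start. Another V5 Olig2 event lay within 10 kb of 46.5% of shared V5 Olig2 events, beside 36.4% of unshared ones. For V5 Hoxc9 it was 40.6% and 32.4%. These counts include neighbours of the same factor within 200 bp, which also differed. Such neighbours were found at 20.8% of shared and 10.1% of unshared V5 Olig2 events, and at 12.1% and 6.22% for V5 Hoxc9. The values therefore do not show more company at a longer range.

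Sharing was spread over all chromosomes. On the autosomes it ranged from 7.13% (chromosome 17) to 14.5% (chromosome 14) of V5 Olig2 events and from 8.01% (chromosome 17) to 13.0% (chromosome 19) of V5 Hoxc9 events. The X chromosome held few events, 174 of Olig2 and 100 of Hoxc9, of which 9 (5.17%; 2.74 to 9.54) and 8 (8.0%; 4.11 to 15.0) were shared. Leaving X out gave 11.7% and 11.1% over the lists.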

How the data were processed

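Reads were aligned with Bowtie 0.12.5 to mm9, per the submitters' processing notes. The caller and its settings were not given in the sources used here. As deposited by the authors, each table lists estimated counts (IP and control), the fold (ratio) of IP over control and −log10 p and q values. Library totals were not used here, so depth is unknown. IP reads were ranked within a list only, and their levels were not compared between lists. Log2 ratios of IP reads between lists entered only a correlation across pairs, which the scale of a list does not change.

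Positions are printed as deposited, and 1 bp may be lost to the choice of first base. Distances, Wilson intervals and correlations were computed with Python 3.11.15, numpy 2.4.6, pandas 2.3.3 and SciPy 1.17.1, and figures with matplotlib 3.10.9. The distance code was tested on simulated lists. There was 1 list per condition and no test. Named sites followed a rule: the 10 strongest pairs, the 10 strongest events per list without the other factor, and the extremes in rank, distance, event number and absence from the native and Flag lists. The members and lists were chosen with earlier results of these data known. Alternatives changed the sharing distance, minimums of IP reads, fold and q, control reads, merging, the X chromosome, the number of top sites and the ranking. Sequences, motifs and genes at the sites were not analysed here.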

Additional observations from a re-analysis of the deposited data

Results flagged for a closer look

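The V5 lists also held 9 events on unplaced contigs, which no comparison used. The 4 V5 Olig2 events had 26.5 to 83.0 IP reads and 0.1 to 8.3 control reads, and the 5 V5 Hoxc9 events 30.0 to 129.0 IP reads and 0 to 14.7 control reads. They came up because IP reads were above control reads outside the chromosomes analysed.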

How the results depend on the processing

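No paired analysis was possible because each factor had 1 list. Of 58 alternatives over 12 results, 21 stayed within the interval or range of the value reported and 37 moved. Sharing of V5 Olig2 and V5 Hoxc9 events, in that order, was 9.23% and 8.92% within 100 bp, 14.1% and 13.2% within 500 bp and 15.7% and 14.9% within 1000 bp. A fold of 10 or more gave 6.85% and 7.83%, a −log10 q of 10 or more 6.08% and 6.25%, and control reads at or below the list median 5.19% and 5.67%. At least 50 IP reads gave 13.0% of V5 Olig2 events, and merged neighbours 10.8%. Stricter minimums leave fewer partners by construction. Sharing between the top lists was 2.8% and 2.6% for 500 sites, 10.2% and 9.2% for 2000, 3.1% and 2.9% ranked by p, 4.1% and 4.0% within 100 bp, and 1.6% and 1.6% with few control reads. The top 1000 had any event of the other factor at 15.9% and 20.3% within 100 bp, 24.1% and 27.9% within 500 bp, and 5.8% and 7.9% with few control reads. Ranked by p, which weighs control reads, it was 17.3% for V5 Hoxc9. The cause of these shifts was not tested. Over pairs, rho of IP reads was 0.130 with few control reads and 0.299 to 0.355 under the other settings. The median distance was 33 bp and 48 bp with limits of 100 and 500 bp. Unknown depth limits any comparison of levels between the lists.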
